A study of Mus musculus with 2 samples.

Results

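The fibroblast growth factors (FGFs), the bone morphogenetic proteins (BMPs) and their receptors were examined in medullary thymic epithelial cells (mTEC), the epithelium of the inner thymus. The genes were chosen by symbol: every FGF, every FGF receptor with Fgfrl1, every gene named Bmp, and the BMP receptors Bmpr1a, Bmpr1b and Bmpr2. They numbered 41 of the 23123 gene symbols in the files, 27 on the FGF side and 14 on the BMP side. The 2 libraries were mTEChi, from cells with high surface MHC class II, and mTEClo, from cells with low surface MHC class II. Both came from wild-type B6 mice whose thymi were pooled before the sort, and both were poly(A)-selected and not stranded. The mTEChi library was read as 100-base pairs and the mTEClo library as single 50-base reads, so read type and cell group cannot be told apart. With 1 library per group there is no replicate check and no test, and every statement describes these 2 libraries.

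FGFs bind receptor tyrosine kinases with heparan sulfate as cofactor and signal largely through the MAP kinase pathway, which induces its own inhibitors such as the Sprouty genes. BMPs bind pairs of type I and type II serine/threonine kinase receptors that phosphorylate Smad1, Smad5 and Smad9, and secreted antagonists hold the ligands back. In the thymus, FGF7 and FGF10 from mesenchyme act on the epithelial receptor FGFR2, and BMP4 from stromal cells supports expression of the epithelial regulator Foxn1. Mature mTEC also transcribe many genes of other tissues.

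Values are RPKM, reads scaled to transcript length and to library depth, as deposited by the authors. They imply about 115000000 reads for mTEChi and 20800000 for mTEClo. Intervals in brackets are 95% counting intervals (exact Poisson) from the recovered reads and cover counting error only. They treat each read as independent, so if both reads of a pair were counted in mTEChi, its intervals are too narrow. Changes are log2 ratios of mTEChi over mTEClo after adding 1 RPKM, with mTEClo multiplied by 1.21 so that well-expressed genes centre on 0. Genes whose 2 libraries averaged at least 0.5 RPKM were called higher or lower where this log2 change reached 1, which is 2-fold. Both libraries carried epithelial transcripts, with Krt8 at 1015 RPKM in mTEChi and 701 RPKM in mTEClo. The epithelial markers were not all alike in the 2 libraries: of 12, 3 were at least 2-fold higher in mTEChi, 3 were lower and 6 lay within 2-fold. Fibroblast and pericyte markers were at least 2-fold lower in mTEChi for 10 of 13 genes, with a summed level of 171 RPKM in mTEChi and 778 RPKM in mTEClo. The pericyte genes among them did not go this way: Rgs5, at 126 RPKM in mTEChi and 49.1 RPKM in mTEClo, was higher (1.07) and made up most of the sum in mTEChi, and Pdgfrb (-0.21) and Cspg4 (-0.15), named after their values were seen, lay within 2-fold. Endothelial markers were lower for 11 of 11, with a summed level of 31.9 RPKM in mTEChi and 272 RPKM in mTEClo. None of these 24 fibroblast, pericyte and endothelial markers was listed at 0 in either library. Markers of dendritic cells and macrophages went the other way, higher in mTEChi for 8 of the 9 that passed the filter. Of these 9, 2 were listed at 0 in mTEClo and passed through their mTEChi level alone, and 6 of the 7 above 0 were higher. The summed level over all 11 was 549 RPKM in mTEChi and 142 RPKM in mTEClo, where 4 were listed at 0. Lyz2 made up most of both sums, at 493 RPKM in mTEChi and 133 RPKM in mTEClo. The part of these cells in the genes higher in mTEChi was not tested.

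The most abundant gene of the set was Fgf21, and the one with the most negative change was Bmp4. The 150 bases upstream of their annotated starts are shown because of these places in the set. The sequences are from RefSeq (GRCm38.p6), 5′ to 3′ on the minus strand of both genes, for Fgf21 at chr7:45615491-45615640 and for Bmp4 at chr14:46390670-46390819. Capitals mark CG dinucleotides and the letters TATAA.
Fgf21: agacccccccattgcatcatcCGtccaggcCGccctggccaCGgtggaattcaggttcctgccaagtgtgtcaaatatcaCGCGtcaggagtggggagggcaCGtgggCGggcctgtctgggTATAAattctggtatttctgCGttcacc
Bmp4: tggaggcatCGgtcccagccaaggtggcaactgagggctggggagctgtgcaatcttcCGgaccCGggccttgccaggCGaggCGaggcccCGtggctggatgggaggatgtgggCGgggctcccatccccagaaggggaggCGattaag
Each stretch held 8 CG dinucleotides. TATAA, searched on both strands within 50 bases of the start, began 28 bases before the start of Fgf21. It was found for 1 of the 30 genes of the set with an entry in the RefSeq promoter table and in 6.36% of all 32851 promoters. Over the 250 upstream bases, CG number ran from 4 to 25 for the 5 genes with an entry that were at least 2-fold higher in mTEChi and from 2 to 15 for the 4 that were lower, so the ranges overlap.

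**Figure D1:**
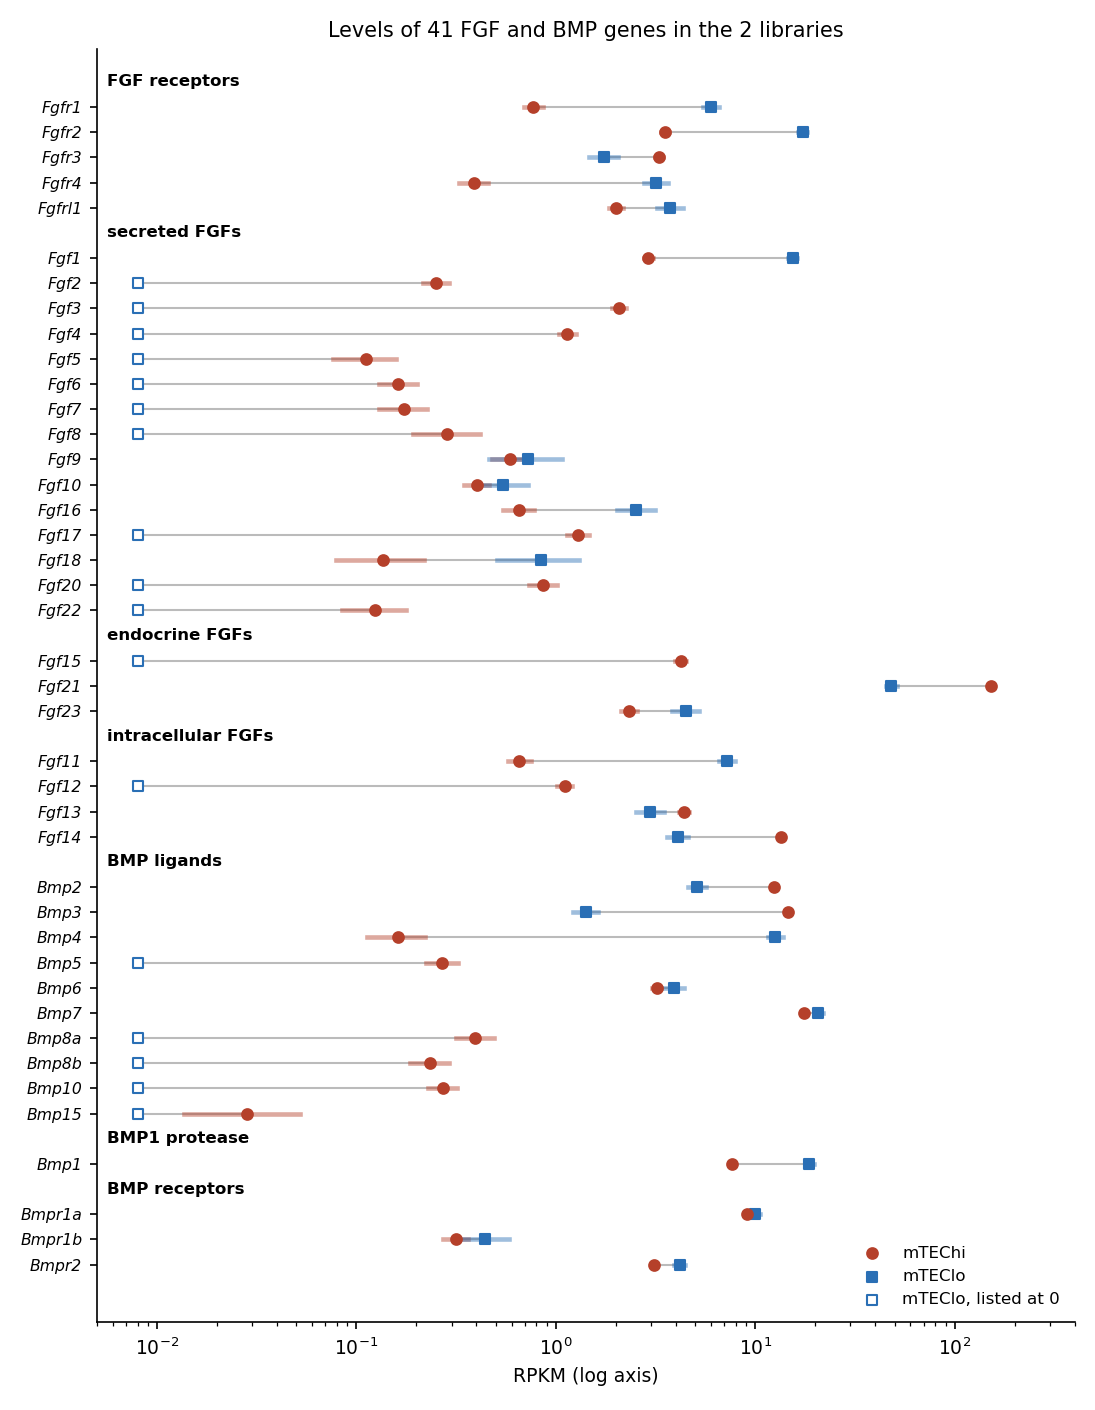
RPKM (log axis) of each of the 41 genes, grouped by role, in mTEChi (circles) and mTEClo (filled squares), with pale bars for 95% counting intervals; open squares at the left edge stand for genes listed at 0 in mTEClo and have no place on the axis. Fgf21 lies farthest right in both libraries, and Bmp4 has the widest gap towards mTEClo.

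Of the 41 genes, 26 passed the mean of 0.5 RPKM and 15 did not. In mTEChi, 8 of the 26 (30.8%) were at least 2-fold higher, against 16.1% of all 15590 genes that passed the filter. Another 8 (30.8%) were at least 2-fold lower, against 9.35% of all such genes. In 5 of the 8 higher genes the mTEClo value was a listed 0, and such a gene reaches 2-fold through the filter and the added 1 RPKM alone. With 5 RPKM added in place of 1, none of these 5 reached 2-fold. Among the 21 genes above 0 in mTEClo, 3 (14.3%) were higher, close to the 11.4% of all genes above 0, and 8 (38.1%) were lower, against 9.87%. The median log2 change of the 26 was -0.41, against 0.03 for all genes, and it lay between -0.51 and -0.061 with other added values and scalings. Taken over other genes of the set it took either sign, at 0.17 over all 41 without the filter and -0.56 over the 21 above 0 in mTEClo.

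**Figure D2:**
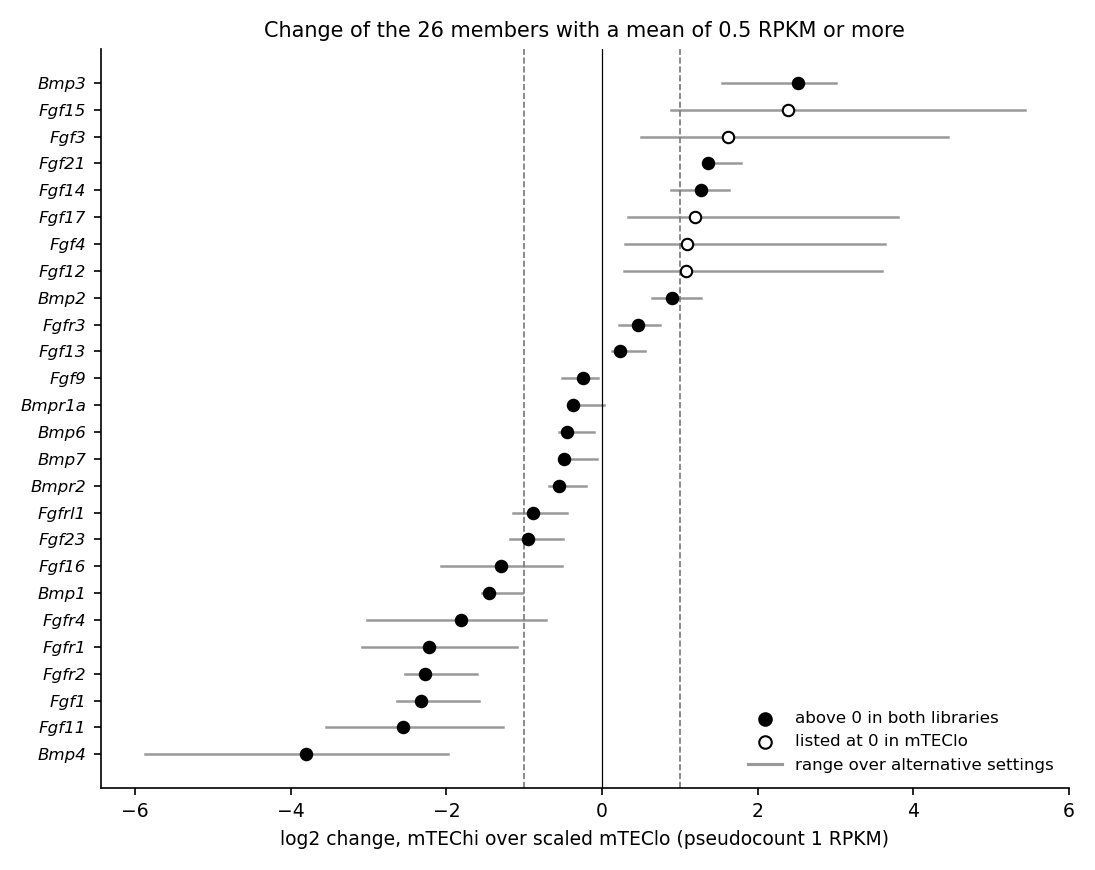
Log2 change (mTEChi over scaled mTEClo, x axis) of the 26 genes that averaged at least 0.5 RPKM, with grey lines for the range over alternative settings and dashed lines at 2-fold. Filled points run from -3.81 (Bmp4) to 2.52 (Bmp3), and the 5 open points, listed at 0 in mTEClo, have the long ranges on the right.

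The FGF receptors were the class with the most members lower in mTEChi, 3 of 5 (60%), with 0 higher, against 9.35% and 16.1% of all genes. Fgfr2, the epithelial receptor for FGF7 and FGF10, was at 3.53 RPKM in mTEChi (3.37 to 3.70) and at 17.3 RPKM in mTEClo (16.4 to 18.2), a log2 change of -2.27. The intervals lie far apart, and the change stayed between -2.53 and -1.60 over the 9 alternatives in which Fgfr2 entered. Fgfr1, a receptor with wide use in mesenchyme, was at 0.771 RPKM in mTEChi (0.692 to 0.860) and at 6.03 RPKM in mTEClo (5.50 to 6.59), a change of -2.23. Fgfr4, best known from liver as a partner of the coreceptor beta-Klotho, was at 0.388 RPKM in mTEChi and at 3.19 RPKM in mTEClo (-1.81), or -0.72 with 5 RPKM added in place of 1. Fgfr3, a receptor that restrains growth of cartilage, had the opposite sign, with 3.29 RPKM in mTEChi and 1.74 RPKM in mTEClo (0.47). Fgfrl1, which binds FGFs but lacks the kinase domain, was at 2.00 RPKM in mTEChi and 3.75 RPKM in mTEClo (-0.88, and -1.14 with 0.1 RPKM added). In mTEClo Fgfr2 stood well above the other 4 receptors, whereas in mTEChi Fgfr2 and Fgfr3 had overlapping intervals (3.13 to 3.46 for Fgfr3). In bulk RNA, fewer cells of a type and less RNA per cell cannot be told apart, and the part of the fibroblast and endothelial markers given above in these receptor values was not tested. Dcn, a fibroblast marker, had 19.5 RPKM in mTEChi and 276 RPKM in mTEClo, and the endothelial Plvap had 9.06 RPKM in mTEChi and 85.0 RPKM in mTEClo.

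Several receptors are listed as more than 1 RefSeq transcript line, and the sources used here do not say how the authors divided reads between isoforms. Fgfr2 had 2 lines, at 3.39 and 3.53 RPKM in mTEChi and at 16.2 and 17.3 RPKM in mTEClo. The 3 lines of Fgfr1 ran from 0.771 to 0.780 RPKM in mTEChi and from 5.71 to 6.03 RPKM in mTEClo, and the 5 lines of Fgfr3 from 3.05 to 3.29 RPKM in mTEChi and from 1.65 to 1.76 RPKM in mTEClo. The lines of a receptor thus lay close together in each library, and these values do not separate the receptors' splice forms. Among the 9 genes of the set with several lines, only Fgf12 had lines on both sides of 2-fold (0.97 and 1.08).

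Among the 15 FGFs that are secreted and act locally, 6 passed the filter. Of these, 3 (50%) were higher and 2 (33.3%) lower in mTEChi, against 16.1% and 9.35% of all genes. The 3 higher genes were all listed at 0 in mTEClo, and of the 3 above 0 there, 0 were higher. Fgf1, which has no signal peptide and binds all FGF receptors, was at 2.91 RPKM in mTEChi (2.76 to 3.08) and at 15.4 RPKM in mTEClo (14.5 to 16.2), a change of -2.32. Fgf16, best known from heart and brown fat, was at 0.653 RPKM in mTEChi and at 2.53 RPKM in mTEClo (-1.30), or -0.98 when the libraries were matched on their upper quartile and -0.51 with 5 RPKM added. For both genes the counting intervals of the libraries do not overlap. Fgf9, a ligand made by many epithelia and mesothelia, had 0.587 RPKM in mTEChi (0.480 to 0.707) and 0.728 RPKM in mTEClo (0.463 to 1.08), which overlap.

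The 3 higher genes, Fgf3, Fgf4 and Fgf17, are embryonic ligands and were listed at 0 in mTEClo. Fgf3, a ligand of inner ear development, was at 2.08 RPKM in mTEChi (1.91 to 2.26). Fgf4, a ligand of the early embryo and limb bud, was at 1.14 RPKM in mTEChi (1.03 to 1.26), and Fgf17, of the embryonic midbrain, at 1.30 RPKM in mTEChi (1.14 to 1.47). Set against the bound of 3 reads that a count of 0 allows in the mTEClo library, these levels were at least 27.5-fold higher for Fgf3, 19.9-fold for Fgf4 and 12.6-fold for Fgf17. A listed 0 can also be a failed estimate, which these files do not resolve.

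The 9 secreted FGFs that did not pass the filter were at 0.111 (Fgf5) to 0.867 RPKM (Fgf20) in mTEChi, and 7 of them were listed at 0 in mTEClo. The mesenchymal ligands of FGFR2 were among them. Fgf7 was at 0.173 RPKM in mTEChi (0.129 to 0.226), from 53 reads, and listed at 0 in mTEClo, where 7.96 reads were expected from mTEChi. Fgf10 was at 0.402 RPKM in mTEChi (0.347 to 0.464) and at 0.544 RPKM in mTEClo (0.403 to 0.729), so its intervals overlap. Fgf18, a ligand of bone and lung, was at 0.136 RPKM in mTEChi and 0.838 RPKM in mTEClo, from 17 and 19 reads. Fgf2, Fgf6, Fgf8 and Fgf22 lay between 0.125 (Fgf22) and 0.285 RPKM (Fgf8) in mTEChi and were listed at 0 in mTEClo.

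The endocrine FGFs, which circulate as hormones and need a Klotho coreceptor, held the highest level of the whole set. Fgf21, a fasting hormone of the liver, was at 151 RPKM in mTEChi (149 to 154) and at 48.1 RPKM in mTEClo (45.1 to 51.2), a log2 change of 1.37. It ranked first of the 41 genes in both libraries and stayed between 1.31 and 1.79 over all alternatives. Fgf15, the ileal hormone that represses bile acid synthesis, was at 4.23 RPKM in mTEChi (3.96 to 4.52) and listed at 0 in mTEClo, at least 44.0-fold higher against the bound. Of its 50-base windows, 21.6% are shared with an antisense gene, and without strand those reads cannot be told apart. Fgf23, the phosphate hormone of bone, went towards mTEClo, with 2.33 RPKM in mTEChi and 4.49 RPKM in mTEClo (-0.95, and -1.18 with 0.1 RPKM added). The coreceptors were low: Kl had 0.449 RPKM and Klb 0.0760 RPKM in mTEChi, and both were listed at 0 in mTEClo.

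The intracellular FGFs are not secreted and are known in neurons as partners of voltage-gated sodium channels, and they moved in both directions. Fgf14, linked in humans to a hereditary ataxia, was at 13.4 RPKM in mTEChi (13.1 to 13.8) and at 4.10 RPKM in mTEClo (3.63 to 4.62), a change of 1.28, or 0.89 with 5 RPKM added. Fgf12 was at 1.11 RPKM in mTEChi and listed at 0 in mTEClo, at least 26.4-fold higher against the bound if that 0 is a true count. Its change of 1.08 became 0.29 with 5 RPKM added. Fgf13 was at 4.38 RPKM in mTEChi and 2.98 RPKM in mTEClo (0.23). Fgf11 was at 0.655 RPKM in mTEChi (0.574 to 0.747) and at 7.20 RPKM in mTEClo (6.55 to 7.89), a change of -2.55. Fgf11 and Fgf14 thus lay past 2-fold on opposite sides.

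The genes listed at 0 in mTEClo can be set against the reads that the mTEChi level predicts there. With 20 to 200 reads expected, 8 of 17 genes of the set (47.1%) were listed at 0, against 16.5% of all 6455 genes with as many expected reads. The 8 were Fgf15 (132 reads expected), Fgf3 (82.5), Fgf12 (79.0), Fgf4 (59.7), Fgf17 (37.7), Fgf2 (25.8), Fgf20 (22.1) and Bmp10 (21.0). With more than 200 expected reads, 0 of 11 genes of the set and 0.638% of all genes were listed at 0. With 10 to 20 expected reads, 4 of 6 genes of the set (66.7%) were listed at 0, against 52.0% of all genes. With fewer than 10, 5 of 7 genes of the set (71.4%) were, a smaller share than the 84.0% of all genes. In the other direction, Bmp4 had 5.71 reads expected and 543 recovered in mTEClo.

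**Figure D3:**
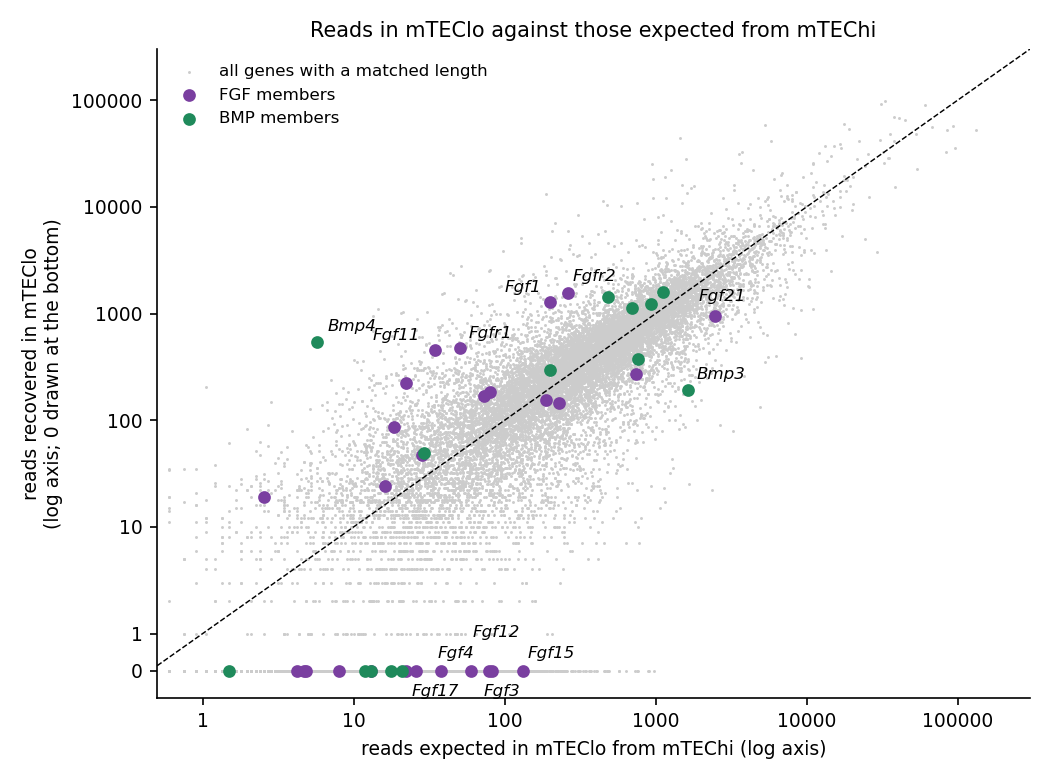
Reads recovered in mTEClo (y, log axis, with 0 drawn at the bottom) against the reads expected there from mTEChi (x, log axis), for FGF genes (purple), BMP genes (green) and all genes with a matched length (grey); the dashed line marks equality. Bmp4, Fgf1, Fgfr2, Fgf11 and Fgfr1 lie above the line, and Fgf15, Fgf3, Fgf12, Fgf4 and Fgf17 lie at 0.

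Fgf3, Fgf4 and Fgf15 are consecutive protein-coding genes in the RefSeq annotation, and all 3 were listed at 0 in mTEClo. The genes beside them were not. Ano1, a chloride channel gene next to Fgf3, was at 1.58 RPKM in mTEChi and 1.42 RPKM in mTEClo (-0.07), a level between those of Fgf4 and Fgf3 in mTEChi. LTO1, a ribosome assembly gene next to Fgf15, was at 8.01 RPKM in mTEChi and 5.94 RPKM in mTEClo (0.14), and Fadd, a death receptor adaptor, had the same change of 0.14. Ccnd1, cyclin D1, was at 13.3 RPKM in mTEChi and 21.5 RPKM in mTEClo (-0.92). The 3 FGFs of this run had changes of 1.62, 1.10 and 2.39, in the order of the genes. In the other adjacent pair, Fgf6 and Fgf23, neither gene was called. Fgf6 did not pass the filter, with 0.163 RPKM in mTEChi and a listed 0 in mTEClo, where 13.1 reads were expected. Fgf23 lay within 2-fold (-0.95).

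**Figure D4:**
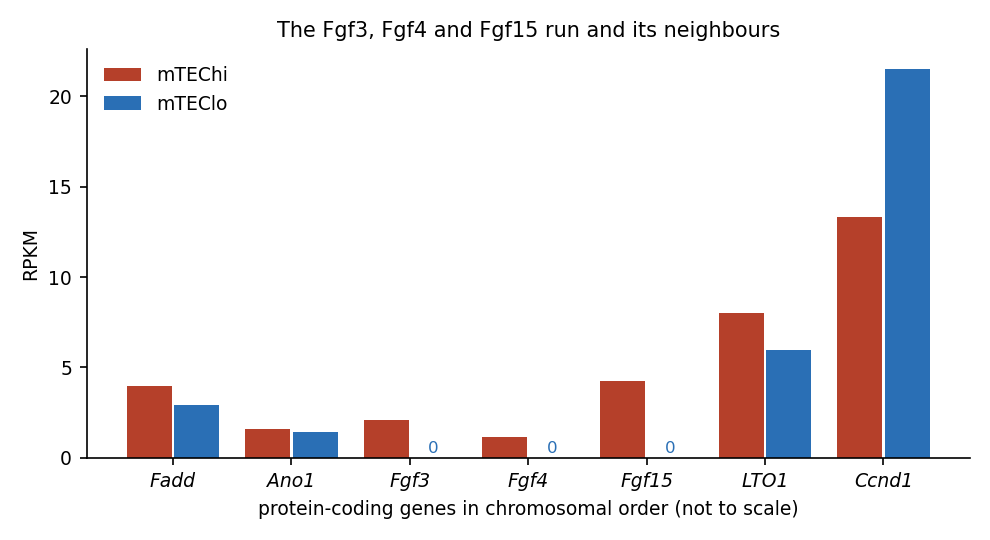
RPKM of 7 consecutive protein-coding genes around Fgf4 in chromosomal order, not to scale, in mTEChi (left bars) and mTEClo (right bars). The 3 FGFs are at 1.14 to 4.23 RPKM in mTEChi and at 0 in mTEClo, while Fadd, Ano1, LTO1 and Ccnd1 are above 0 in both.

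Of the 10 BMP ligands, 5 passed the filter, and Bmp3 and Bmp4 lay on opposite sides. Bmp4, the BMP of thymic stroma, was at 0.162 RPKM in mTEChi (0.113 to 0.220), from 38 reads, and at 12.6 RPKM in mTEClo (11.6 to 13.7), from 543 reads. Its log2 change was -3.81, between -5.88 and -1.97 over the 9 alternatives in which it entered, and the ratio without an added value was -6.56 (counting interval -7.09 to -6.10). Of its 50-base windows, 2.43% are shared with other genes. The part of other cell types in the Bmp4 values was not tested. Beside them, the fibroblast gene Postn had 3.48 RPKM in mTEChi and 202 RPKM in mTEClo (-5.77), and the endothelial gene Pecam1 had 4.79 RPKM in mTEChi and 59.2 RPKM in mTEClo (-3.65). Bmp3, a member that opposes other BMPs in bone, was at 14.5 RPKM in mTEChi (14.3 to 14.8) and at 1.41 RPKM in mTEClo (1.22 to 1.63), a change of 2.52.

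The remaining 3 BMP ligands lay within 2-fold. Bmp7, a ligand of kidney and epithelia, was the most abundant BMP in both libraries, with 17.6 RPKM in mTEChi (17.2 to 18.0) and 20.7 RPKM in mTEClo (19.7 to 21.8), a change of -0.48. Bmp2, an osteogenic ligand close to BMP4 in sequence, went towards mTEChi, with 12.4 RPKM in mTEChi (12.1 to 12.8) and 5.10 RPKM in mTEClo (4.60 to 5.64). Its change of 0.91 became 1.14 without scaling, 1.03 with the same RPKM sum and 1.27 with the same upper quartile, so whether it reached 2-fold depended on the scaling. Bmp6, an iron-regulating ligand of liver endothelium, had 3.21 RPKM in mTEChi and 3.93 RPKM in mTEClo (-0.45). In mTEChi the order of the ligands was thus Bmp7, Bmp3, Bmp2 and Bmp6, with Bmp4 far below, and in mTEClo it was Bmp7, Bmp4, Bmp2, Bmp6 and Bmp3. The intervals of neighbours in both orders do not overlap.

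The other 5 ligands, Bmp5, Bmp8a, Bmp8b, Bmp10 and Bmp15, were at 0.0284 (Bmp15, an oocyte factor) to 0.394 RPKM (Bmp8a) in mTEChi and were listed at 0 in mTEClo. Bmp8a and Bmp8b are near copies that share 210 of the 1868 windows of 50 bases of Bmp8a, so the split between them is uncertain. Of the windows of Bmp5, 48.5% are shared with an antisense gene.

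Bmp1 is a metalloprotease that trims procollagens and cleaves the BMP antagonist chordin, and is not a ligand of the BMP receptors. It was at 7.64 RPKM in mTEChi (7.38 to 7.91) and at 18.6 RPKM in mTEClo (17.7 to 19.6), a change of -1.45, and it stayed past 2-fold under every alternative tried.

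Both BMP receptors that passed the filter lay within 2-fold. Bmpr1a, a type I receptor, was at 9.08 RPKM in mTEChi (8.86 to 9.31) and at 9.97 RPKM in mTEClo (9.42 to 10.5), a change of -0.37, or 0.03 after matching the upper quartiles. Bmpr2, the type II receptor, was at 3.11 RPKM in mTEChi and at 4.18 RPKM in mTEClo (-0.56). Bmpr1b, the second type I receptor, did not pass the filter, with 0.317 RPKM in mTEChi and 0.440 RPKM in mTEClo.

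Beyond the genes of the set, 8 lists were counted, which were chosen with earlier results of these data known. They hold other ligands and receptors of the TGF-beta superfamily, and transducers, cofactors, modulators and targets of both pathways. In these lists, 90 distinct genes passed the filter. Of these, 8 (8.89%) were at least 2-fold higher and 28 (31.1%) at least 2-fold lower in mTEChi, against 16.1% and 9.35% of all genes. BMP targets had 7 of 13 lower and 2 higher, with a median log2 change of -1.46. Among the lower genes, Id1 was at 20.3 RPKM in mTEChi and 97.2 RPKM in mTEClo (-2.48). Msx1 was at 1.70 RPKM in mTEChi and 9.62 RPKM in mTEClo (-2.23), and Id3 was at 90.9 RPKM in mTEChi and 231 RPKM in mTEClo (-1.61). Atoh8 (-1.87) and Id4 (-1.60) were lower too. The 2 higher genes were homeobox genes of bone and epidermis, Dlx5 (2.09) and Dlx3 (1.41), and with 5 RPKM added they had 0.99 and 0.61. The signal-transducing Smads lay within 2-fold, on both sides of 0. Smad1 was at 42.9 RPKM in mTEChi and 22.3 RPKM in mTEClo (0.65), Smad4 at 26.9 RPKM in mTEChi and 16.4 RPKM in mTEClo (0.42), and Smad5 at 5.53 RPKM in mTEChi and 8.43 RPKM in mTEClo (-0.78). The inhibitory Smad6 was the 1 lower gene of 8 in the Smad list (-1.59, and -0.76 with 5 RPKM added). Many of these targets are also active in endothelium and fibroblasts, and their part was not tested.

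BMP antagonists and other extracellular modulators had 6 of 14 lower (42.9%) and 2 higher (14.3%) in mTEChi, against 9.35% and 16.1% of all genes. Nbl1, an antagonist of the DAN family, was at 6.09 RPKM in mTEChi and 66.5 RPKM in mTEClo (-3.52), and Fst, follistatin, at 1.38 RPKM in mTEChi and 13.2 RPKM in mTEClo (-2.84). Fstl1 (-2.29), Htra1 (-1.93) and Chrdl1 (-1.67, and -0.57 with 5 RPKM added) were lower as well. The 2 higher genes were Grem1, gremlin, with 15.9 RPKM in mTEChi and 4.12 RPKM in mTEClo (1.50), and Sost, sclerostin, a bone protein at 3.07 RPKM in mTEChi and listed at 0 in mTEClo (2.02, and 0.69 with 5 RPKM added). Other receptors and coreceptors had 4 of 13 lower (30.8%) and 0 higher. The largest of these changes was that of Eng, an endothelial coreceptor, at 1.35 RPKM in mTEChi and 35.4 RPKM in mTEClo (-4.22). Tgfbr2, the type II receptor of TGF-beta, had -2.57, Acvrl1, an endothelial type I receptor, -2.13 and the coreceptor Rgma -2.12.

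On the FGF side, targets and feedback inhibitors had 3 of 9 lower (33.3%) and 0 higher, against 9.35% and 16.1% of all genes. All 3 lower genes were Sprouty genes. Spry1 was at 5.08 RPKM in mTEChi and 14.6 RPKM in mTEClo (-1.61), Spry4 at 0.579 RPKM in mTEChi and 2.43 RPKM in mTEClo (-1.32), and Spry2 at 8.02 RPKM in mTEChi and 15.6 RPKM in mTEClo (-1.14). Spry2 did not reach 2-fold without scaling (-0.88), with the same RPKM sum or after matching the upper quartiles (-0.73), which left 2 lower genes, and with 5 RPKM added Spry2 (-0.87) and Spry4 (-0.51) did not, which left 1. Dusp6, the phosphatase that resets the MAP kinase, was at 13.0 RPKM in mTEChi and 19.1 RPKM in mTEClo (-0.78), and Spred2 and Spred1, relatives of the Sprouty genes, had 0.64 and -0.66. Cofactors at the cell surface had 6 of 12 lower (50%) and 1 higher (8.33%). Among them Hspg2, perlecan, had -2.02, Flrt2 -1.76, or -0.69 with 5 RPKM added, and Gpc3, glypican-3, -1.70. The syndecans Sdc3 (-1.57) and Sdc2 (-1.56) were lower too, and the higher gene was Fgfbp1, a carrier that releases FGFs from matrix, with 35.4 RPKM in mTEChi and 10.1 RPKM in mTEClo (1.46). The intracellular transducers had 1 of 12 lower (8.33%), close to the 9.35% of all genes. This was the adaptor Frs3 (-1.34, and -0.55 with 5 RPKM added), and the median of the list was -0.04. That median took the other sign under other scalings, at 0.21 without scaling, 0.096 with the same RPKM sum and 0.36 after matching the upper quartiles.

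**Figure D5:**
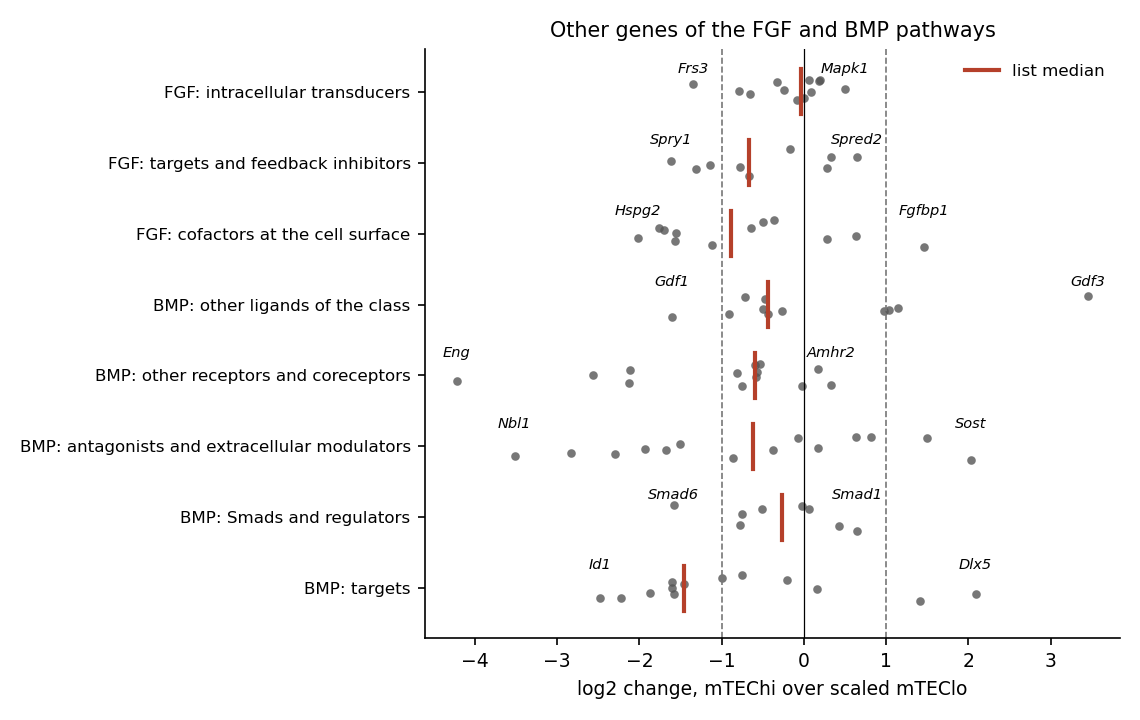
Log2 change (mTEChi over scaled mTEClo, x axis) of the pathway genes that averaged at least 0.5 RPKM, 1 point a gene in 8 lists, with red bars for list medians, dashed lines at 2-fold and the extreme genes that averaged at least 1 RPKM named. The BMP targets have the lowest median, -1.46, and the intracellular FGF transducers sit around 0.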

How the data were processed

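The authors deposited RPKM values, 1 for each RefSeq transcript line and library. Per the submitters' processing notes, mouse build mm9 was used, and Bowtie 1.0.0, CASAVA and bedtools are named without roles. The sources used here do not say how reads shared by isoforms were counted. Of 30794 lines, 30216 were named through RefSeq and 180 through GENCODE, and 398 were left out. A gene's value is its line with the highest mean RPKM. The members and lists were chosen with earlier results of these data known. All 26 members that passed the filter are named. Each pathway list gives up to 6 genes, first those past 2-fold with the largest change among means of 1 RPKM or more, then those of highest level, and each marker list up to 4 of highest mean. Grem1, Dlx3, Gdf10, Kl and Klb are named outside this rule, after their values were seen. Read numbers were recovered as the depth at which RPKM times GENCODE transcript length comes closest to whole reads. Among transcripts with 1 to 10 reads, 76.8% in mTEChi and 65.2% in mTEClo lay within 0.1 of a whole read. Lengths and exon overlaps belong to a later build than mm9. Scaling used 5167 genes that averaged at least 10 RPKM. The depth, scaling and change steps were run on simulated libraries of independent counts. These held no paired reads, isoform-shared reads or difference of build, so they do not test for those. Figures were drawn with matplotlib 3.10.9, and values were computed with scipy 1.17.1, pandas 2.3.3 and numpy 2.4.6 in Python 3.11.15.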

Additional observations from a re-analysis of the deposited data

How the results depend on the processing

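Of the 26 genes that passed the filter, 15 kept their side of 2-fold under every alternative that gave a value, counting genes that stayed within 2-fold. Of the higher genes only Bmp3 and Fgf21 were among these, and of the lower genes Bmp1, Bmp4, Fgf1, Fgf11, Fgfr1 and Fgfr2. No called gene changed sign under the alternatives run. With 5 RPKM added in place of 1, 2 of the 26 genes were higher and 6 lower, against 5.63% and 4.16% of all genes. The median log2 change was then -0.26, and 3 pathway genes were higher and 19 lower. With a mean of 5 RPKM or more required, fewer genes enter. Of the set, 3 were then higher and 4 lower, against 12.1% and 9.87% of the 8325 genes kept. Of the pathway genes, 2 were higher and 20 lower. The median was -0.17 without scaling, -0.28 with the same RPKM sum, -0.061 with the same upper quartile and 0.17 without a filter. These scalings moved the median of all genes to 0.25, 0.15 and 0.37, and the median of the set lay below it under each. Without a filter the median of all genes was 0.044, and that of the set lay above it. Added after seeing the data, leaving out genes at 0 in mTEClo gave 3 higher and a median of -0.56, and leaving out genes whose exons overlap another gene gave 5 lower, since Bmp4, Fgfr1 and Fgfr2 then do not enter. Of 33 named genes of the pathway lists, 21 kept their side of 2-fold, and the others lost it with 5 RPKM added, Spry2 also under the 3 other scalings. No paired analysis was possible because each group has 1 library. Levels resting on few reads, such as Fgf18 and Bmp15, are limited by depth.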

Other observations

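Other ligands of the TGF-beta superfamily, outside the FGF and BMP names, were among the pathway lists counted above. Of 11 that passed the filter among 18, 3 (27.3%) were at least 2-fold higher in mTEChi, against 16.1% of all genes, and 1 (9.09%) was lower, against 9.35%. With 5 RPKM added, 1 was higher and 0 lower. Gdf3, a ligand of pluripotent cells, was at 9.97 RPKM in mTEChi and listed at 0 in mTEClo. Tgfb2 was at 6.17 RPKM in mTEChi and 2.07 RPKM in mTEClo (log2 change 1.04), and Gdf10 at 1.40 RPKM in mTEChi and 0.0763 RPKM in mTEClo (1.14). Gdf1 was the lower one, at 0.478 RPKM in mTEChi and 2.90 RPKM in mTEClo (-1.61). Gdf15, a stress-induced ligand, was the most abundant of the list, at 28.8 RPKM in mTEChi and 11.8 RPKM in mTEClo (0.97).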
